A study of Mus musculus with 16 samples.

Results

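Intron retention was examined in the left ventricles of 16 mice through the retained intron events of 3 deposited splicing tables. A retained intron event is an intron that is either spliced out or kept between its 2 neighbouring exons. All events of this type in the 3 tables were taken, 3602 of 58101 splicing events of 5 types, in 2253 genes. An event was analysed where each of the groups compared averaged 10 or more junction reads a library.

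The mice were on the Bl6J background, of both sexes, and carried either no Rbm20 mutation (WT) or P635L, a missense change in the splicing regulator RBM20, on both alleles. At 4 weeks of age each received 1e12 viral genomes of AAV9 in the tail vein, and hearts were taken 12 weeks later, at 16 weeks. The virus carried Tnpo3 cDNA, or a control construct (Ctr) encoding iCre and eGFP under the pCAG promoter, so every group was injected and no uninjected mice were among the samples. The 4 groups, P635L Ctr, P635L Tnpo3, WT Ctr and WT Tnpo3, had 4 mice each, and the sex of single mice was not given in the labels. The promoter that drives Tnpo3 was not given in the sources used here.

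Most introns are removed while a transcript is being made or soon after. A transcript that keeps an intron may be held in the nucleus, be degraded in the cytoplasm when the intron brings in a stop codon, or encode a different protein end. RBM20 is a heart and muscle splicing regulator with an arginine-serine (RS) rich region, binds UCUU-containing RNA, and represses exons of titin and other sarcomere and calcium-handling transcripts. TNPO3 is the nuclear import receptor for proteins with phosphorylated RS regions, among them the SR proteins, a family that defines splice sites.

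The 3 tables compared WT Ctr with P635L Ctr, with P635L Tnpo3 and with WT Tnpo3. They held 3431, 3432 and 3372 retained intron events, of which 2804, 2805 and 2731 had enough reads, and 2670 events in 1704 genes had them in all 4 groups. Just inside that limit in the first table was an intron of Wdr45 with 10 reads per library in its lower group and mean inclusion of 0.546 in WT Ctr and 0.77 in P635L Ctr. Just outside was one of Slc7a4 with 9.75 reads and inclusion of 0.938 and 0.724. Inclusion estimates the share of transcripts that keep the intron, from 0 to 1, from reads over the exon-intron borders and reads that join the exons. Any form that crosses a border without keeping the whole intron also counts as kept. Total gene counts ranged from 28493249 to 85922669 per library. Tnpo3 itself averaged 44.8 ± 3.29 CPM (counts scaled to a common library total) in WT Ctr and 44.5 ± 2.72 in P635L Ctr, against 320 ± 126 in WT Tnpo3 and 464 ± 214 in P635L Tnpo3 (SD, n = 4 each). Of 4 atrial marker genes only 1 had enough counts to be tested, at no more than 8.62 CPM in any library. Cardiomyocyte marker genes summed to 57600 to 73700 CPM in WT Ctr, 45200 to 66700 in WT Tnpo3, 42800 to 46300 in P635L Ctr and 41900 to 52500 in P635L Tnpo3. Fibroblast markers summed to 671 to 1050, 751 to 882, 1180 to 1770 and 793 to 1110 CPM in the same order. Both P635L groups thus lay below WT Ctr in cardiomyocyte markers, and P635L Ctr above the other groups in fibroblast markers. Their part in the differences between groups was not tested. The 4 libraries of a group stand in the splicing tables in an order that is not stated, so they are named by their listed position.

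The introns at depth in all groups ran from 1 to 8856 bases, with a median of 241 bases. Mean inclusion in WT Ctr was under 0.1 for 1140 of the 2670, from 0.1 to under 0.5 for 861, and 0.5 or more for 669. Members are not independent, since 577 of these introns overlap another event's intron and 559 genes hold more than 1 event. Gas5, a non-coding RNA gene whose introns carry small nucleolar RNAs, held 29 of them, and the small nucleolar RNA hosts Snhg1 and Snhg17 held 9 each. Every one of the 3602 introns lies inside an annotated exon of its own gene, so each kept form is an annotated transcript form. By transcript structure, 3147 events were matched to GENCODE M21 (GRCm38): 2651 of these introns lie within coding sequence, 225 in untranslated regions and 271 in non-coding transcripts. Of the matched introns 3068 have GT-AG ends, 61 GC-AG and 4 AT-AC.

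The sequences below are 7 of the introns that passed a narrower edgeR fit, described with the results, and are shown because the single-intron results turn on them. Each is given 5′ to 3′ on the transcript strand, from the GRCm38 genome, with 12 exon bases on each side in lower case and the first and last 2 intron bases in capitals. The first 3, in Mrps26, Ctsa and Tmed4, are coding-region introns of 80 to 175 bases that were kept more in P635L Tnpo3 than in WT Ctr.
Mrps26, chr2:130564228-130564307, plus strand, 80 bases: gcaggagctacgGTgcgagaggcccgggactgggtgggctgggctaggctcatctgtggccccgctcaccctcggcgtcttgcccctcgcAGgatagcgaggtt
Ctsa, chr2:164834209-164834319, plus strand, 111 bases: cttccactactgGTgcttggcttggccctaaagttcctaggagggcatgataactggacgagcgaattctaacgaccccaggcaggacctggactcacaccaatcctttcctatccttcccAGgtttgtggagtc
Tmed4, chr11:6274499-6274673, minus strand, 175 bases: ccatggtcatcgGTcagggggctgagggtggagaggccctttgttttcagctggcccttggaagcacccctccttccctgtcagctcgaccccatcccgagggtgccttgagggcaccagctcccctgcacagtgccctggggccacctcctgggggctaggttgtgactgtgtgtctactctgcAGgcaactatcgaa

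The Dmpk intron has a GC in place of the usual GT at its 5′ end and is also in coding sequence.
Dmpk, chr7:19092037-19092207, plus strand, 171 bases: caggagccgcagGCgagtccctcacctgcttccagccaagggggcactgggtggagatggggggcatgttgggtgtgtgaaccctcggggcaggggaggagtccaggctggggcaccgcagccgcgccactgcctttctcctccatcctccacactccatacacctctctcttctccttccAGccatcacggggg
Dpp9 differed between the 2 viruses in P635L mice.
Dpp9, chr17:56205622-56205696, minus strand, 75 bases: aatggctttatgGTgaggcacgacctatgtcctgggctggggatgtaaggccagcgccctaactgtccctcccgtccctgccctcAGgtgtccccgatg
For the 2 long introns the ends alone are given, 12 exon and 40 intron bases at each end. Ensa was kept less in both P635L groups than in WT Ctr, and Srsf6 encodes an SR protein.
Ensa 5′ end, intron chr3:95628708-95631431, plus strand, 2724 bases: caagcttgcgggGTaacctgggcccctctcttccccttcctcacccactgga
Ensa 3′ end: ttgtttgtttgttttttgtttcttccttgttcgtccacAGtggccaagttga
Srsf6 5′ end, intron chr2:162932143-162933425, plus strand, 1283 bases: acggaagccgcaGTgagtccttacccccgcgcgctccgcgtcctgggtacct
Srsf6 3′ end: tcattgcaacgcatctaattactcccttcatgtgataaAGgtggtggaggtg

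As a whole, introns were kept most in the P635L mice that received Tnpo3. Over the 2670 introns, the median inclusion in the 4 P635L Tnpo3 libraries was 0.167, 0.164, 0.171 and 0.172. It was 0.13, 0.1, 0.152 and 0.146 in WT Ctr, 0.155, 0.146, 0.143 and 0.116 in P635L Ctr, and 0.104, 0.118, 0.153 and 0.163 in WT Tnpo3. The 4 P635L Tnpo3 libraries thus lie above the other 12, narrowly so over the highest WT Tnpo3 library, and they differ least among themselves. Group means were 0.132 ± 0.0232 in WT Ctr, 0.135 ± 0.0282 in WT Tnpo3, 0.14 ± 0.0168 in P635L Ctr and 0.168 ± 0.00391 in P635L Tnpo3 (SD, n = 4 each). These medians are a description, with no test.

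**Figure D1:**
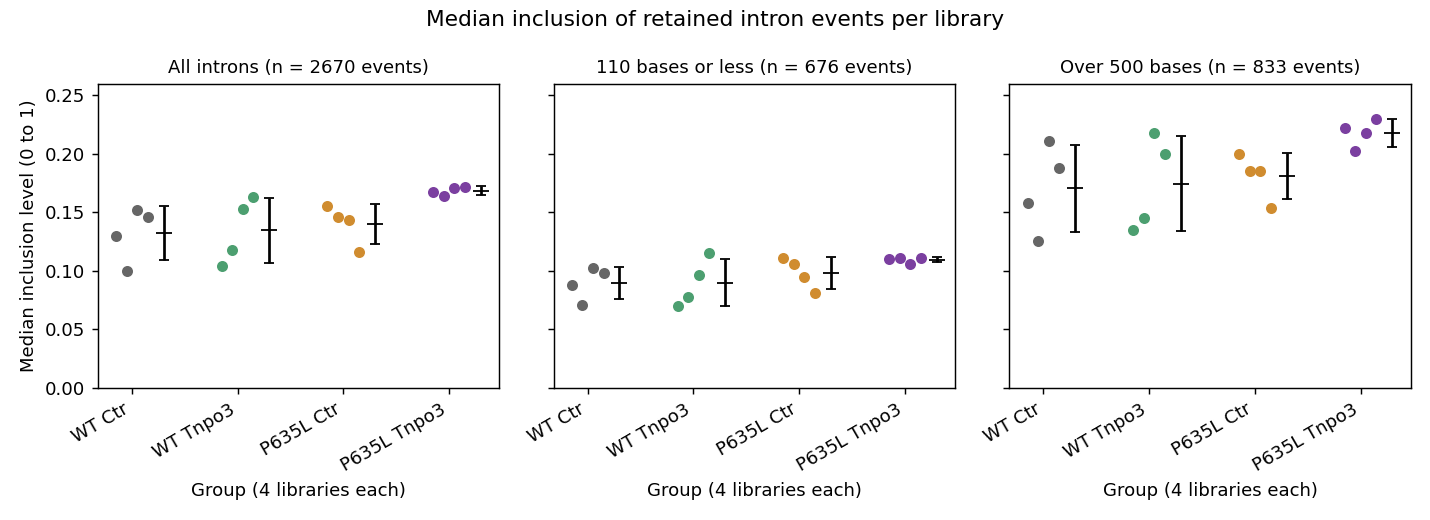
Median inclusion of retained intron events (0 to 1) in each library of the 4 groups, for all 2670 introns at depth, for the 676 of 110 bases or less and for the 833 of over 500 bases. Points are libraries in listed order and bars are the mean and SD of 4; over all introns the P635L Tnpo3 points, 0.164 to 0.172, lie above all others, and in the shorter and longer classes they overlap the highest points of other groups.

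Both short and long introns had their highest group mean in P635L Tnpo3. For introns of 110 bases or less the library medians were 0.106 to 0.111 in P635L Tnpo3, 0.071 to 0.102 in WT Ctr, 0.0702 to 0.115 in WT Tnpo3 and 0.0807 to 0.111 in P635L Ctr. For introns of over 500 bases they were 0.202 to 0.23, 0.125 to 0.211, 0.135 to 0.218 and 0.154 to 0.2 in the same order. Within each length class P635L Tnpo3 therefore overlapped at least 1 other group. The within-group spread is itself large: the lowest and highest WT Ctr libraries differ by more than the WT Ctr and P635L Tnpo3 group means. Erythroid marker genes summed to 882 to 1470 CPM in P635L Tnpo3 and 609 to 1110 in P635L Ctr. They summed to 253 to 1320 in WT Tnpo3 and 239 to 1040 in WT Ctr. A single abundant gene took 0.703% to 22.7% of counts in the 16 libraries. Its highest shares were 20% and 21.2%, both in WT Ctr, and 22.7%, in WT Tnpo3. The remaining WT libraries had 0.749% to 1.39%, and no P635L library had more than 5.3%. The part of the erythroid genes and of this gene in these library-wide levels was not tested.

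The share of introns kept more than in the reference group followed the same order. Mean inclusion was higher in P635L Tnpo3 than in WT Ctr for 1838 of 2805 introns (65.5%), with a median difference of 0.0111. Against P635L Ctr it was higher in P635L Tnpo3 for 1741 of 2670 (65.2%), with a median difference of 0.0085. Those comparisons share the P635L Tnpo3 libraries. In P635L Ctr it was higher than in WT Ctr for 1498 of 2804 (53.4%), and in WT Tnpo3 for 1393 of 2731 (51%), with median differences of 0.0016 and 0.0003. Leaving out WT Ctr library 2, the one with the lowest median, brought the P635L Ctr count to 1317 and the WT Tnpo3 count to 1216, in each case fewer than the introns that were not higher. Without the same library the P635L Tnpo3 count against WT Ctr was 1696.

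**Figure D2:**
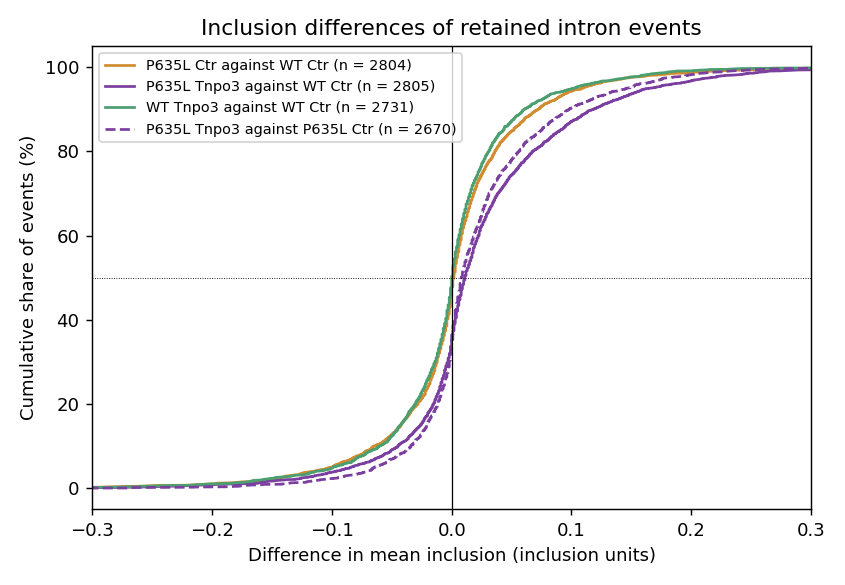
Cumulative share of retained intron events (%) against the difference in mean inclusion between groups (inclusion units), 1 line per comparison. The P635L Tnpo3 lines against WT Ctr and against P635L Ctr lie to the right of the other 2, with medians of 0.0111 and 0.0085 against 0.0016 and 0.0003.

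Other kinds of splicing event did not share this direction. In P635L Tnpo3 against WT Ctr the median difference was -0.001 over skipped exons, 0 over alternative 3′ and over alternative 5′ splice sites, and -0.0127 over mutually exclusive exons. For those last the sign depends on which of the 2 exons is counted as included. The share of events with higher inclusion was 42.5% over the 4 other types together, beside 65.5% for retained introns. The difference between types was not tested.

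Single introns were judged in 3 ways. In edgeR's quasi-likelihood fit over events of all types, an intron was called at a Benjamini-Hochberg adjusted p under 0.05 and an inclusion difference of at least 0.1. That fit called 1 retained intron in P635L Ctr against WT Ctr, where 0.158% of all events were called, and 0 in P635L Tnpo3 against WT Ctr (0.0346%) and in WT Tnpo3 against WT Ctr (0%). It called 0 in P635L Tnpo3 against P635L Ctr (0.0275%) and 0 for the interaction of virus and genotype (0.0118%). At an unadjusted edgeR p under 0.05 the numbers of retained introns were 110, 211, 56, 136 and 114 in the same order, where 7.58%, 7.43%, 5.34%, 6.07% and 5.31% of all events had such a p. In data simulated for P635L Ctr against WT Ctr, 34810 events, this fit recovered 3% of inclusion changes of 0.2 and 58% of changes of 0.4. The narrower fit, limited to events with pooled inclusion from 0.05 to 0.95, recovered 55% and 99% over 11753 events, with 7.78% of its calls false. It was added after the data were seen, and called 2, 7, 0, 4 and 0 retained introns, where 0.757%, 0.19%, 0%, 0.398% and 0.102% of its events of all types were called. In the simulation, changes were placed only in events of middle inclusion and higher depth. All its events had the same spread between libraries (overdispersion 0.0121). The simulated rates therefore need not hold for events near the depth minimum or with larger spread.

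The third way was the false discovery rate (FDR) that rMATS, the authors' splicing caller, gave each event. At an rMATS FDR under 0.05 and a difference of at least 0.1, the authors' deposited table gave 88 retained introns in P635L Ctr against WT Ctr, 3.14% of those tested beside 2.5% of all events. Of these, 44 were higher and 44 lower, where 1.05% and 1.45% of all events were. For P635L Tnpo3 against WT Ctr it gave 223, 7.95% beside 2.1% of all events. Of these, 181 were higher and 42 lower, where 1.11% and 0.996% of all events were. In WT Tnpo3 against WT Ctr it gave 43, 1.57% beside 0.928%, with 22 higher and 21 lower where 0.43% and 0.499% of all events were. By the same rule skipped exons made up 571, 317 and 178 events, 2.37%, 1.32% and 0.811% of those tested, in the authors' deposited tables. Shares of retained introns and of all events are not like for like here. In P635L Tnpo3 against WT Ctr, pooled inclusion lay from 0.05 to 0.95 for 2103 of 2805 retained introns. It did so for 4517 of 23980 skipped exons, and a difference of 0.1 is harder to reach near 0 or 1. With each library left out of the inclusion difference in turn, the 223 became 196 to 232, and 152 to 196 of them were higher. The rMATS model treats spread between mice differently from edgeR, and 69 of the 223 introns had no overlap between the libraries of the groups, 2.46% beside 0.725% of all events. They were 64 higher and 5 lower, where 0.404% and 0.32% of all events were. The same count was 25 of the 88 (0.892% beside 0.954%), 12 higher and 13 lower where 0.454% and 0.5% of all events were, and 8 of the 43 (0.293% beside 0.223%), 6 higher and 2 lower where 0.122% and 0.1% were.

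**Figure D3:**
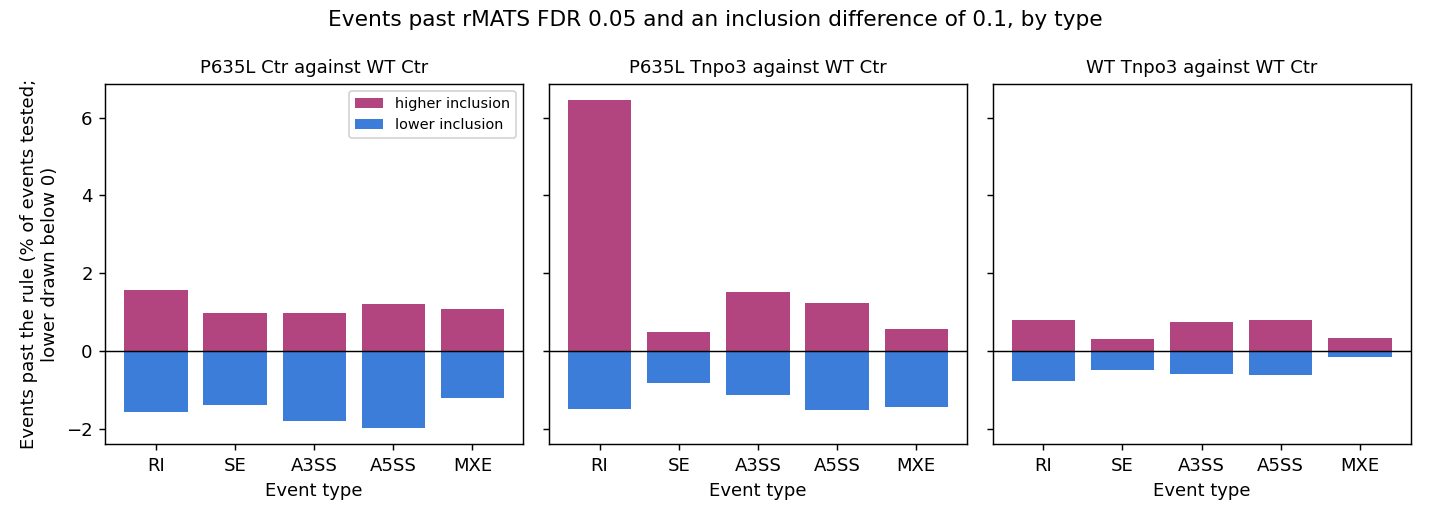
Share of tested events (%) past an rMATS FDR of 0.05 and an inclusion difference of 0.1, by event type (RI retained intron, SE skipped exon, A3SS and A5SS alternative 3′ and 5′ splice site, MXE mutually exclusive exons), with lower inclusion drawn below 0. Retained introns with higher inclusion in P635L Tnpo3, 181 of 2805, form the tallest bar.

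P635L Tnpo3 was not compared with P635L Ctr in a deposited table. From the libraries in the 3 tables, 84 of 2670 introns differed by at least 0.1 with no overlap between these groups, 3.15% beside 1.31% of all events, with 76 higher and 8 lower where 0.754% and 0.554% of all events were. In WT mice, WT Tnpo3 against WT Ctr, the same rule held for 12 of 2731 introns (0.439% beside 0.405%), 7 higher and 5 lower where 0.207% and 0.198% were. These shares are again not like for like. In the first of these comparisons pooled inclusion lay from 0.05 to 0.95 for 2052 of 2670 retained introns, but for 4116 of 16940 skipped exons. The interaction fit called 0 retained introns, so whether Tnpo3 acted differently on single introns in the 2 genotypes was not shown.

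The 181 introns kept more in P635L Tnpo3 than in WT Ctr can also be read in the groups that did not choose them. Of these, 179 had enough reads in all groups. Their median inclusion was 0.285 in P635L Ctr and 0.258 in WT Tnpo3, beside 0.219 in WT Ctr and 0.401 in P635L Tnpo3, the 2 groups the choice rests on. A choice of this kind draws events that were low by chance in WT Ctr, so a rise over WT Ctr in the other groups is no result. Their median length was 295 bases against 246 over all introns tested, their median GC content 52.2% against 52.6%, and 27.1% against 32.2% had a length that is a multiple of 3. The letters TCTT, the DNA form of the core bound by RBM20, were searched on the transcript strand. They occurred in 81.5% of the 173 with sequence and in 71.8% of all tested, at a median of 0.723 and 0.613 per 100 bases. For the 32 with sequence of the 42 kept less the figures were 65.6% and 0.565 per 100 bases. These are descriptions of letters, with no test.

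Mhrt held the largest supported change. Mhrt (myosin heavy chain associated RNA) is a long non-coding RNA transcribed opposite to Myh7, the gene for beta myosin heavy chain. Its 983-base intron, at chr14:55207884-55208866 on the plus strand (GRCm39), had inclusion of 0.661, 0.829, 0.781 and 0.753 in WT Ctr, and of 0.386, 0.303, 0.334 and 0.253 in P635L Ctr. In P635L Tnpo3 the values were 0.562, 0.664, 0.573 and 0.572, and in WT Tnpo3 0.674, 0.502, 0.805 and 0.742. P635L Ctr lies below every other library, and P635L Tnpo3 lies between P635L Ctr and WT Ctr, overlapping WT Ctr by 1 library.

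Against WT Ctr, inclusion of the Mhrt intron in P635L Ctr fell by 0.437 (SE 0.0451; edgeR adjusted p = 1.13e-05, and at most 5.49e-05 with any library left out). Under limma with weights the adjusted p was 0.0574. In P635L Tnpo3 it was 0.274 higher than in P635L Ctr (SE 0.0366), with an edgeR adjusted p of 0.243 over all events and 0.00917 in the narrower fit. The interaction of virus and genotype had an edgeR adjusted p of 0.872 over all events and 0.0605 in the narrower fit. Reads over the intron borders numbered 3637 in WT Ctr, 942 in P635L Ctr and 2463 in P635L Tnpo3, while reads joining the exons numbered 575, 1024 and 828.

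The Mhrt intron overlaps an exon of Myh7 on the other strand. Myh7 itself had 856 ± 224 CPM in WT Ctr, 139 ± 36.4 in P635L Ctr, 363 ± 32.7 in P635L Tnpo3 and 502 ± 200 in WT Tnpo3 (SD, n = 4 each). In P635L Ctr it fell by 2.62 on the log2 scale (edgeR adjusted p = 6.55e-06), and was 1.39 higher in P635L Tnpo3 than in P635L Ctr (edgeR adjusted p = 0.00768). Mhrt as a gene differed by -0.87 and 0.6 in these comparisons (edgeR adjusted p = 0.109 and 0.377). The libraries were stranded, but the strand setting of the splicing caller was not given in the sources used here. Without it, intron-border reads of Mhrt and reads of Myh7 cannot be told apart.

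Ensa, which encodes endosulfine alpha, an inhibitor of the phosphatase PP2A-B55 in mitosis, kept its 2724-base intron less in both mutant groups. Inclusion was 0.864, 0.904, 0.859 and 0.884 in WT Ctr and 0.845, 0.886, 0.853 and 0.92 in WT Tnpo3. It was 0.788, 0.784, 0.694 and 0.791 in P635L Ctr and 0.772, 0.752, 0.745 and 0.747 in P635L Tnpo3. All 8 P635L libraries lie below all 8 WT libraries, whichever virus they had received. The difference from WT Ctr was -0.113 (SE 0.0256) in P635L Ctr and -0.124 (SE 0.012) in P635L Tnpo3, with edgeR adjusted p-values of 0.0304 and 0.0339 in the narrower fit and 0.632 and 0.6 over all events. Between the viruses it was -0.002 (SE 0.02) in WT and -0.011 (SE 0.0242) in P635L mice. Ensa as a gene did not pass the test between these groups, with 143 ± 20.3 CPM in WT Ctr and 147 ± 3.61 in P635L Ctr (SD, n = 4 each).

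Mrps26, for a protein of the small mitochondrial ribosomal subunit, showed the opposite order. Its 80-base intron had inclusion of 0.132, 0.0933, 0.109 and 0.103 in WT Ctr, 0.146, 0.111, 0.149 and 0.126 in WT Tnpo3, 0.23, 0.193, 0.188 and 0.153 in P635L Ctr and 0.247, 0.236, 0.225 and 0.258 in P635L Tnpo3. All 8 P635L libraries lie above all 8 WT libraries. Inclusion rose by 0.132 (SE 0.0108) in P635L Tnpo3 against WT Ctr in the narrower fit (edgeR adjusted p = 0.00248, 0.391 over all events). In P635L Ctr the difference was 0.082 (SE 0.0177), under the limit of 0.1, with an edgeR adjusted p of 0.0394 in the narrower fit.

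**Figure D4:**
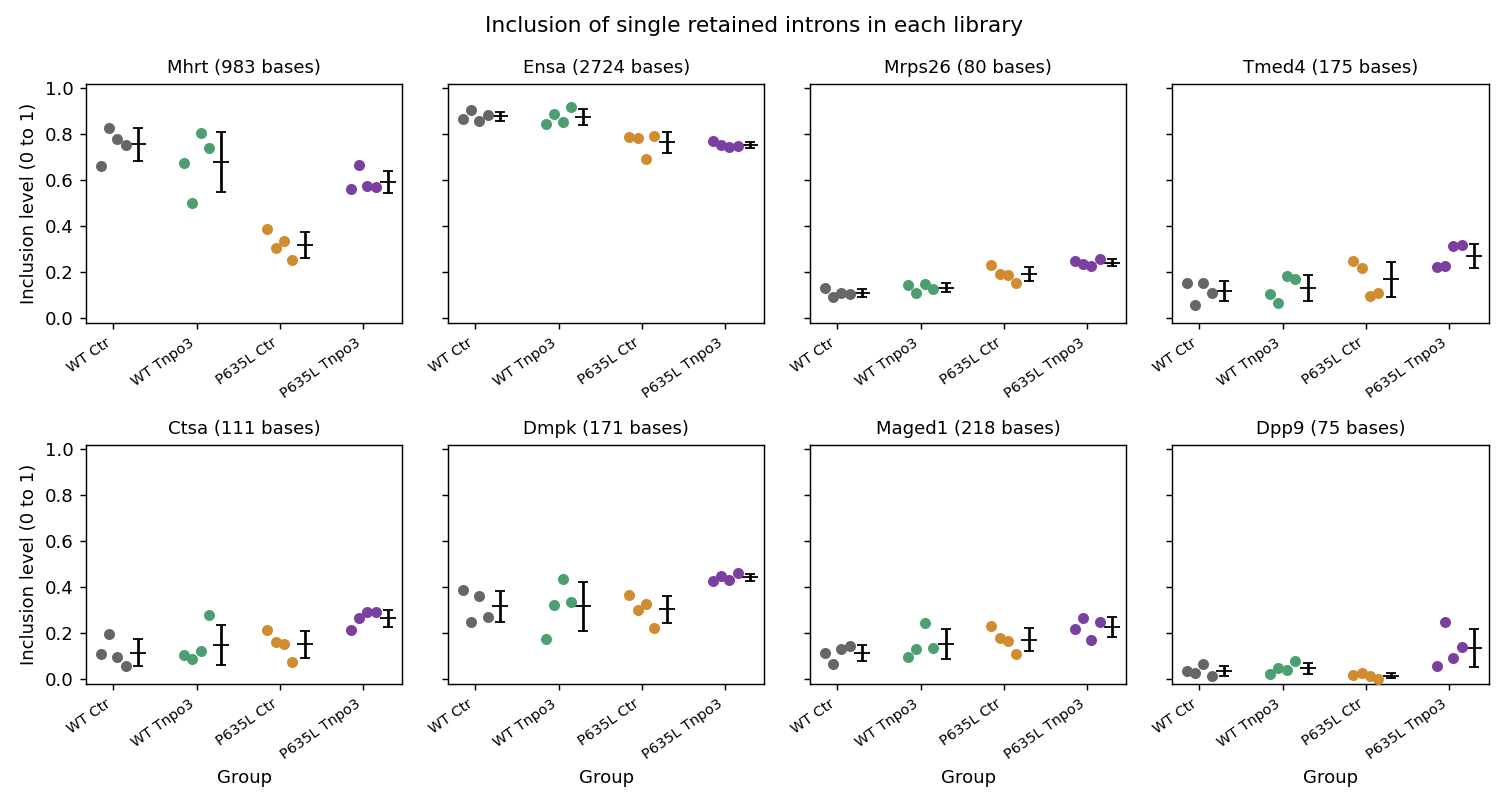
Inclusion (0 to 1) of 8 single introns in each library of the 4 groups, with the mean and SD of 4 beside the points. Mhrt is lowest in P635L Ctr, Ensa is lower and Mrps26 higher in both P635L groups than in both WT groups, and the P635L Tnpo3 points of Dmpk, 0.425 to 0.463, lie above those of WT Ctr and P635L Ctr.

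A further 4 introns passed the narrower fit in P635L Tnpo3 against WT Ctr, all kept more. Tmed4 encodes a carrier of cargo between the endoplasmic reticulum and the Golgi. Its intron had inclusion of 0.223, 0.226, 0.312 and 0.319 in P635L Tnpo3, 0.151, 0.0588, 0.152 and 0.108 in WT Ctr, and 0.25, 0.219, 0.0968 and 0.111 in P635L Ctr. P635L Tnpo3 is clear of WT Ctr and overlaps P635L Ctr. The rise over WT Ctr was 0.153 (SE 0.0344; edgeR adjusted p = 0.0167 in the narrower fit, 0.337 over all events).

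Ctsa encodes cathepsin A, a lysosomal protease. Its intron had inclusion of 0.213, 0.265, 0.29 and 0.294 in P635L Tnpo3 against 0.111, 0.198, 0.097 and 0.0552 in WT Ctr. The 4 WT Tnpo3 values were 0.104, 0.0878, 0.123 and 0.278, so 1 of them reached the P635L Tnpo3 range. P635L Ctr held 0.214, 0.163, 0.151 and 0.0748, and 1 of these reached it too. The rise over WT Ctr was 0.15 (SE 0.0353; edgeR adjusted p = 0.0422 in the narrower fit, 0.44 over all events).

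Dmpk encodes the kinase whose repeat expansion in people causes myotonic dystrophy. Its GC-AG intron had inclusion of 0.425, 0.448, 0.433 and 0.463 in P635L Tnpo3, 0.386, 0.247, 0.363 and 0.269 in WT Ctr, 0.364, 0.299, 0.327 and 0.224 in P635L Ctr, and 0.176, 0.321, 0.434 and 0.337 in WT Tnpo3. P635L Tnpo3 lies above WT Ctr and P635L Ctr and overlaps WT Tnpo3 by 1 library. The rise over WT Ctr was 0.126 (SE 0.0352; edgeR adjusted p = 0.0217 in the narrower fit, 0.613 over all events). Over P635L Ctr it was 0.138 (SE 0.0308), which did not pass either fit (edgeR adjusted p = 0.8 and 0.394).

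Maged1, for an adaptor protein of the MAGE family, rose by 0.111 (SE 0.0279; edgeR adjusted p = 0.0277 in the narrower fit, 0.482 over all events) in the same comparison. Its 218-base intron had inclusion of 0.218, 0.268, 0.169 and 0.247 in P635L Tnpo3 and 0.112, 0.0645, 0.133 and 0.146 in WT Ctr. P635L Ctr held 0.232, 0.181, 0.167 and 0.109, and WT Tnpo3 0.097, 0.132, 0.246 and 0.135, so both overlap P635L Tnpo3. Of the 7 introns that passed the narrower fit here, 5 were kept more, and Ensa and Mhrt were kept less, where 0.0948% of its events of all types were called in each direction. Mhrt fell by 0.163 (SE 0.0427; edgeR adjusted p = 0.0136 in the narrower fit, 0.423 over all events). None of the genes of Tmed4, Ctsa, Dmpk, Maged1, Mrps26 or Ensa passed the gene expression test in P635L Tnpo3 against WT Ctr.

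Between P635L Tnpo3 and P635L Ctr, 4 introns passed the narrower fit, all kept more with Tnpo3, where 0.112% of its events of all types were called higher and 0.286% lower. Mhrt is described above. Dpp9, for a dipeptidyl peptidase, went from 0.0172, 0.0281, 0.0133 and 0 in P635L Ctr to 0.0579, 0.247, 0.0927 and 0.14 in P635L Tnpo3, a rise of 0.12 (SE 0.0415; edgeR adjusted p = 0.0306 in the narrower fit, 0.252 over all events). Without the highest Dpp9 library, which supplies much of that size, the difference was 0.082.

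Another was Srsf6, an SR protein gene. Its 1283-base intron had inclusion of 0.89, 0.891, 0.843 and 0.824 in P635L Tnpo3 and 0.726, 0.685, 0.684 and 0.555 in P635L Ctr, with no overlap. WT Ctr held 0.764, 0.62, 0.866 and 0.889, and WT Tnpo3 0.639, 0.713, 0.802 and 0.875. Inclusion rose by 0.199 (SE 0.0408; edgeR adjusted p = 0.0295 in the narrower fit, 0.573 over all events). In P635L Ctr against WT Ctr the difference was -0.122 (SE 0.0717), with an FDR of 0.0216 in the authors' deposited table and an edgeR adjusted p of 0.654. The Srsf6 gene stood at 159 ± 17.7 CPM in P635L Ctr and 171 ± 6.6 in P635L Tnpo3 (SD, n = 4 each) and did not pass the test.

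Introns of genes for SR and SR-like splicing proteins were listed as one group, 15 events in 11 genes at depth. In P635L Tnpo3 against WT Ctr, 12 of the 15 had a positive difference, with a median of 0.018, beside 65.5% and 0.011 over all introns. Against 181 of 2805 introns in all, 3 were higher at the rMATS rule in the authors' deposited table, Srsf7, Srrm1 and Rsrp1. Srsf7 encodes an SR protein, Srrm1 a splicing coactivator and Rsrp1 a protein rich in arginine and serine. In P635L Ctr against WT Ctr, 7 of 15 were positive with a median of -0.001, and the authors' deposited table held Srsf7 higher and Srsf6 lower. In WT Tnpo3 against WT Ctr, 6 of 16 were positive, with a median of -0.012, and 0 passed the rMATS rule. No event of this list passed edgeR over all events in any comparison, and Srsf6 alone passed the narrower fit.

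Srsf7 kept its 874-base intron at 0.256, 0.133, 0.427 and 0.449 in WT Ctr and at 0.485, 0.508, 0.457 and 0.386 in P635L Ctr. The P635L Tnpo3 values, 0.471, 0.471, 0.498 and 0.506, lie above all WT Ctr values and within those of P635L Ctr. The difference from WT Ctr was 0.143 (SE 0.0792) in P635L Ctr and 0.17 (SE 0.0752) in P635L Tnpo3, with FDRs of 0.0346 and 0.00583 in the authors' deposited table and edgeR adjusted p-values of 0.654 and 0.584.

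Srrm1 kept its 2065-base intron at 0.748, 0.752, 0.827 and 0.846 in P635L Tnpo3, above every library of the other 3 groups. WT Ctr held 0.579, 0.407, 0.702 and 0.513, P635L Ctr 0.686, 0.597, 0.581 and 0.504, and WT Tnpo3 0.556, 0.663, 0.723 and 0.641. The difference was 0.243 (SE 0.0666) from WT Ctr and 0.201 (SE 0.0451) from P635L Ctr, with edgeR adjusted p-values of 0.623 and 0.742 over all events and 0.164 and 0.229 in the narrower fit. For Rsrp1, WT Ctr held 0.631, 0.443, 0.704 and 0.609 and P635L Tnpo3 0.833, 0.604, 0.693 and 0.744, so the groups overlap.

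**Figure D5:**
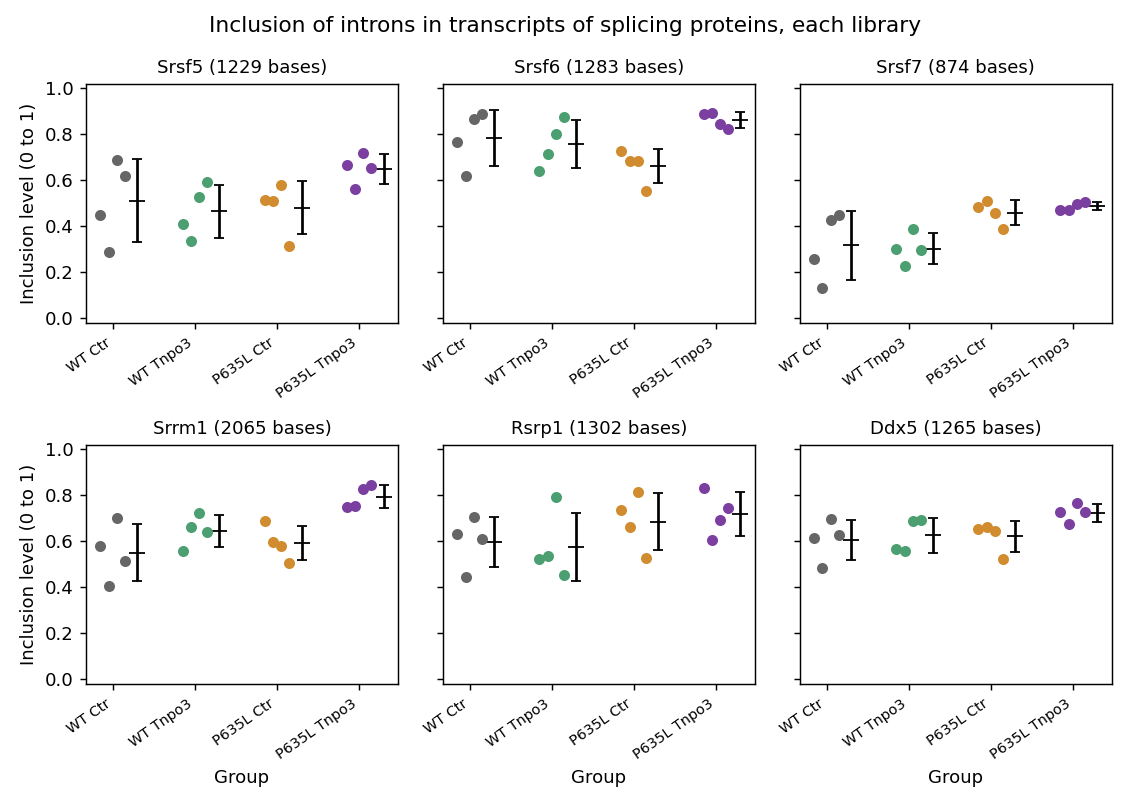
Inclusion (0 to 1) of introns in Srsf5, Srsf6, Srsf7, Srrm1, Rsrp1 and Ddx5 in each library of the 4 groups, with the mean and SD of 4 beside the points. Srrm1 in P635L Tnpo3, 0.748 to 0.846, lies above all other libraries, and Srsf6 in P635L Tnpo3 lies above P635L Ctr but overlaps both WT groups.

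Genes known for detained introns, that is, introns spliced late and held in the nucleus in other cells, gave 16 events in 10 genes. The events were taken by gene, so they need not be the detained introns themselves. Between P635L Tnpo3 and WT Ctr 14 of the 16 had a positive difference, with a median of 0.05, beside 65.5% and 0.011 over all introns. Against 181 of 2805 introns higher in all, Ddx5, Mat2a and Srsf7 were higher at the rMATS rule in the authors' deposited table. Ddx5, for an RNA helicase, had inclusion of 0.728, 0.673, 0.765 and 0.725 in P635L Tnpo3 and 0.653, 0.663, 0.644 and 0.523 in P635L Ctr, without overlap, a difference of 0.102 (SE 0.0379; edgeR adjusted p = 0.83). WT Ctr, at 0.616, 0.484, 0.696 and 0.627, reached into the P635L Tnpo3 range. The 1265-base Ddx5 intron also overlaps an annotated microRNA gene, Mir3064, on the same strand.

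Mat2a, for the enzyme that makes S-adenosylmethionine, had inclusion of 0.568, 0.49, 0.58 and 0.538 in P635L Tnpo3, and 0.402, 0.372, 0.482 and 0.497 in WT Ctr. The difference was 0.105 (SE 0.0362), with an FDR of 0.0321 in the authors' deposited table and an edgeR adjusted p of 0.69. Rbm3, a cold-induced RNA-binding protein, held 0.165, 0.162, 0.178 and 0.17 in P635L Tnpo3, all above the WT Ctr values of 0.101, 0.0813, 0.113 and 0.156. Srsf5 held 0.666, 0.563, 0.719 and 0.653 there, and its WT Ctr libraries ranged from 0.286 to 0.687. Inclusion of Ccnl2 was at least 0.967 in all 16 libraries and of Clk1 at most 0.0486.

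Among the kinases that phosphorylate SR proteins and the import receptors, 11 events in 6 genes were at depth. The kinase Clk2 had inclusion of 0.264, 0.398, 0.409 and 0.368 in P635L Tnpo3 and 0.193, 0.082, 0.372 and 0.231 in WT Ctr, a difference of 0.14 (SE 0.0685), with an FDR of 0.0284 in the authors' deposited table and an edgeR adjusted p of 0.674. It was the one event of this list at the rMATS rule, in 1 of the 3 comparisons. Clk4, at 0.0833, 0.0739, 0.078 and 0.122 in WT Tnpo3, lay above the 0.0516, 0.0464, 0.0461 and 0.0152 of WT Ctr, a difference of 0.05 (SE 0.0139; edgeR adjusted p = 0.735). The kinase Srpk3 ranged from 0.156 to 0.267 in WT Tnpo3 and from 0.0882 to 0.172 in WT Ctr, a difference of 0.099 (SE 0.0306), just under the limit, with an FDR of 0.000109 in the authors' deposited table. Srpk1 ranged from 0.387 to 0.647 and from 0.25 to 0.828. Clk3 held 0.193 ± 0.0618 in WT Ctr and 0.287 ± 0.0388 in P635L Tnpo3 (SD, n = 4 each).

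The known RBM20 targets contributed few introns: 7 of 26 listed genes had a retained intron event, and 5 events reached depth in the P635L comparisons. Camk2g encodes a calcium and calmodulin dependent kinase. Its 440-base intron stood at 0, 0, 0 and 0.0316 in WT Ctr and at 0.0167, 0.0141, 0 and 0.0612 in WT Tnpo3. In P635L Ctr it stood at 0.0896, 0.0617, 0.0968 and 0.0814, and in P635L Tnpo3 at 0.0462, 0.0408, 0.0952 and 0.0408. Both P635L groups lie above WT Ctr with no overlap. The differences were 0.074 (SE 0.0109) and 0.048 (SE 0.0154), under the limit of 0.1, with edgeR adjusted p-values of 0.524 and 0.659.

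The 1096-base intron of Ryr2, the calcium release channel of the sarcoplasmic reticulum, has GG in place of the usual GT at its 5′ end. Inclusion was 0.169, 0.0963, 0.292 and 0.166 in WT Ctr, 0.374, 0.264, 0.299 and 0.177 in P635L Ctr, and 0.355, 0.25, 0.307 and 0.385 in P635L Tnpo3. The groups overlap. The difference from WT Ctr was 0.098 (SE 0.0578) in P635L Ctr and 0.143 (SE 0.0504) in P635L Tnpo3, with FDRs of 0.0369 and 0.000207 in the authors' deposited table and edgeR adjusted p-values of 0.677 and 0.659.

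Nexn, for a Z-disc protein, ranged from 0.117 to 0.139 in P635L Ctr and from 0.155 to 0.167 in P635L Tnpo3, without overlap but far under the limit of 0.1. WT Ctr ranged from 0.13 to 0.156 and overlapped both. Tpm2, a tropomyosin, had intron inclusion of at most 0.0881 in any library, while the gene itself rose by 2.03 on the log2 scale in P635L Ctr against WT Ctr (edgeR adjusted p = 6.34e-05). The deepest Ttn event, 156 bases, was at 0.998 or more in all WT libraries and was not analysed here in P635L mice.

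Lists with little or no movement were the sarcomere (6 events in P635L Tnpo3 against WT Ctr, median difference 0, 0 at the rMATS rule), oxidative phosphorylation (8 events, median 0.001, 0 at the rule) and the spliceosome (17 events, median 0.002, with U2af1l4 lower in the authors' deposited table). The spliceosome list did not hold Ddx46, a spliceosome helicase whose intron, described below, had among the largest rises in P635L Tnpo3 against WT Ctr. Of 23 events in hnRNPs and other RNA-binding proteins, 16 had a positive difference in that comparison, median 0.012, close to the 65.5% and 0.011 over all introns, with Ddx5 higher and Hnrnpc lower in the authors' deposited table. Celf1, which regulates splicing in developing heart, had an intron at 0.173, 0.0857, 0.245 and 0.241 in WT Ctr and 0.26, 0.261, 0.438 and 0.395 in P635L Ctr. In P635L Tnpo3 it was at 0.241, 0.0833, 0.24 and 0.246, so P635L Ctr lies above both. The difference of P635L Ctr from WT Ctr was 0.152 (SE 0.0591), with an FDR of 0.0116 in the authors' deposited table and an edgeR adjusted p of 0.677. Another Celf1 event went the other way between the viruses. It was higher in P635L Tnpo3 than in P635L Ctr by at least 0.1, with no overlap. Calcium handling genes had 4 events, all with a positive difference in P635L Tnpo3, of which Ryr2 passed the rMATS rule, 1 such event reached depth in nonsense-mediated decay genes, and the circadian clock list held 0.

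The largest differences with no overlap mostly came from introns with few reads. In P635L Ctr against WT Ctr these included, after Mhrt, Espn (an actin bundling protein, 0.485), Cenpt (a centromere protein, -0.274), Snx32 (a sorting nexin, -0.265), Zfp672 (a zinc finger protein, 0.264), Gm20619 (-0.25) and Arhgap45 (0.226). Espn stood at 0, 0.398, 0.268 and 0.454 in WT Ctr and at 0.598, 0.793, 0.922 and 0.748 in P635L Ctr, on means of 17.5 and 26.5 junction reads per library. Snx32 stood at 0.417, 0.619, 0.413 and 0.723 in WT Ctr and at 0.311, 0.262, 0.315 and 0.223 in P635L Ctr. In P635L Tnpo3 Snx32 was at 0.536, 0.455, 0.449 and 0.373, above all P635L Ctr libraries. Snx32 as a gene rose by 0.95 on the log2 scale in P635L Ctr (edgeR adjusted p = 0.000139), and Gm20619 fell by 1.6 (edgeR adjusted p = 6.28e-05). Apart from Mhrt, these had edgeR adjusted p-values of 0.577 to 0.677 over all events.

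The 8 largest in P635L Tnpo3 against WT Ctr were all kept more: Idua (a lysosomal iduronidase, 0.414), Ddx46 (an RNA helicase of the spliceosome, 0.353), Ccdc9b (0.313), Fdxacb1 (0.311), Sgsm3 (0.309), Capn15 (a calpain, 0.289), Hsd3b7 (an enzyme of bile acid synthesis, 0.288) and Eps8l2 (0.282). Idua stood at 0.604, 0.156, 0.51 and 0.565 in WT Ctr, 0.617, 0.588, 0.836 and 0.714 in P635L Ctr and 0.841, 0.829, 0.93 and 0.893 in P635L Tnpo3, the last overlapping P635L Ctr by 1 library. Ddx46 stood at 0.0417, 0.286, 0.279 and 0.0784 in WT Ctr and at 0.31, 0.528, 0.714 and 0.543 in P635L Tnpo3. Capn15 went from 0.0614, 0.0721, 0.285 and 0.168 to 0.499, 0.326, 0.472 and 0.446. Without its highest library Ccdc9b had a difference of 0.161 in place of 0.313. Their edgeR adjusted p-values over all events were 0.395 to 0.674. Hsd3b7 overlaps an exon of another gene on the other strand, and its own gene had only 0.148 to 0.339 mean CPM per group. Its intron averaged 77.2 junction reads per library in WT Ctr and 180 in P635L Tnpo3, more than those gene counts allow. Most of these reads were therefore not counted to Hsd3b7, and the gene they came from was not tested.

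In WT Tnpo3 against WT Ctr the 8 were Abcc8 (a subunit of potassium channels, 0.387), Rabggta (a Rab prenylation enzyme, 0.364), Oga (which removes O-GlcNAc from proteins, 0.271), Parp3 (a poly-ADP-ribose polymerase, -0.166), Pwwp3a (-0.148), Reep4 (0.137), 2310020H05Rik (0.124) and Rusf1 (0.117). Oga stood at 0.087, 0.143, 0.257 and 0.147 in WT Ctr and at 0.4, 0.316, 0.556 and 0.448 in WT Tnpo3, on means of 28.5 and 25.5 junction reads. Parp3 stood at 0.938, 0.938, 1 and 0.967 against 0.769, 0.694, 0.818 and 0.897. All 8 had an edgeR adjusted p of 0.735 over all events. The authors' deposited table gave them FDRs from 0.000158 for Parp3 to 0.0497 for Rabggta.

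Host genes of retained introns changed in expression about as often as other genes. In P635L Ctr against WT Ctr 232 of 1756 host genes passed the edgeR test, 13.2% beside 14.2% of all 18662 genes, and in P635L Tnpo3 against WT Ctr 49 of 1753, 2.8% beside 3.07%. In WT Tnpo3 against WT Ctr 0 of 1728 host genes passed, where 1 of all genes did by edgeR and 4 by DESeq2. In P635L Tnpo3 against P635L Ctr 63 of 1696 passed, 3.71% beside 3.88%, and 7 of 1696 passed for the interaction, 0.413% beside 0.504%. The 181 introns kept more in P635L Tnpo3 lie in 173 genes. Of these genes 7 passed in P635L Tnpo3 against WT Ctr (4.05%, beside 2.8% of host genes and 3.07% of all genes), 6 higher and 1 lower. Among all host genes 33 were higher and 16 lower, and among all genes 278 and 295. The median log2 fold change of the 173 genes was 0.05, beside 0.01 over all host genes and -0.05 over all genes. A poly(A) library counts kept and spliced transcripts together, and fewer cells of a type and less RNA per cell cannot be told apart in bulk tissue.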

How the data were processed

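Poly(A) RNA from left ventricles was sequenced as stranded libraries, per the labels' protocols. STAR 2.7.9a, featureCounts 2.0.6, DESeq2 and the build GRCm39 are named in the submitters' processing notes. The authors deposited gene counts and 3 rMATS tables, which per the file headers give inclusion and skipping junction counts for each library, inclusion levels as a fraction, p-values and FDR. The rMATS version, annotation and strand setting are not given in the sources used here. Inclusion was recomputed from the counts with each count divided by the length of its form, and matched the deposited levels within 0.0005. For retained introns the deposited FDR equals a Benjamini-Hochberg adjustment of the p-values within that event type.

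Junction counts were fitted with edgeR 4.0.16 (R 4.3.3; quasi-likelihood, both counts of a library in one model with a library effect), over all events with a mean of 10 junction reads per library in both groups. P635L Tnpo3 against P635L Ctr and the interaction used events held in all 3 tables, with 25464 tested. Alternatives were limma 3.58.1, DESeq2 1.42.0 for genes, the rMATS FDR, other limits, and each library left out. The fit was tested on simulated data. Gene counts were fitted with edgeR over 16 libraries, 18662 genes. SE of a difference in inclusion comes from the 4 libraries of each group. Mice are the replicates.

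Named introns were those called. Where fewer than 5 were called, those past the rMATS rule with no overlap followed by size, up to 8 per deposited comparison. The deepest event of each gene in 3 lists (RBM20 targets, SR protein kinases and import receptors, genes known for detained introns) was added. Introns from the narrower fit and list members at the rMATS rule were chosen after their values were seen. Results for 2 named genes are not reported here. Members and lists were chosen with earlier results of these data known.

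Sequences were taken from GRCm38 by matching exon and intron lengths to GENCODE M21 transcripts. Introns without a match were not analysed for sequence. Coordinates of Mhrt are the deposited GRCm39 ones.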

Additional observations from a re-analysis of the deposited data

Results flagged for a closer look

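A library was set apart from the other 3 of its group by more than Dixon's 95% limit (0.829 of the group's range) in 5 of 130 groups tested over the 33 named introns, and chance gives about 1 in 20. They were Mhrt in P635L Tnpo3 (0.664, the others 0.562 to 0.573), Cenpt in P635L Ctr (0.2, the others 0.641 to 0.73), and Ensa in P635L Ctr (0.694, the others 0.784 to 0.791). Ccdc9b in P635L Tnpo3 (0.904, the others 0.245 to 0.355) and 2310020H05Rik in WT Tnpo3 (0.926, the others all 1) completed them.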

How the results depend on the processing

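No paired analysis was possible because the order of the libraries in the splicing tables is not stated. For genes, the fit with a replicate block called 2487, 490, 1, 677 and 113 in place of 2653, 573, 1, 724 and 94 for the 5 comparisons in the order of the report. Same-numbered libraries did not all deviate together: correlations ranged from -0.257 to 0.552, and 7 of 16 libraries correlated best with their own number.

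For retained introns in P635L Ctr against WT Ctr, the single edgeR call (Mhrt) became 88 at the rMATS FDR, 0 with limma and weights, and 2 in the narrower fit. Leaving out 1 library gave 1 to 2: without WT Ctr library 3, Ppp1r9a was also called (difference 0.521, edgeR adjusted p = 0.0277; 0.391 and 0.14 with all libraries). In P635L Tnpo3 against WT Ctr the 0 became 223 and 7, in WT Tnpo3 against WT Ctr 43 and 0, and in P635L Tnpo3 against P635L Ctr 4 in the narrower fit. The other planned settings for these counts kept 0 calls, or 1 in the first comparison.

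At the rMATS rule the counts 88, 223 and 43 became 192, 369 and 80 at a difference of 0.05, 25, 68 and 12 at a difference of 0.2, and 39, 131 and 13 at an FDR of 0.01. With 20 junction reads the 88 became 55 and the 43 became 23. With 1 library left out they ranged from 84 to 100, from 196 to 232 and from 34 to 45. Counts of introns with higher inclusion ranged from 1317 to 1613, 1696 to 1877, 1186 to 1558 and 1625 to 1789.

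Median inclusion without scaling by form lengths was 0.228 in WT Ctr, 0.231 in WT Tnpo3, 0.241 in P635L Ctr and 0.282 in P635L Tnpo3, and 0.149 in P635L Tnpo3 with 20 reads (0.117, 0.119 and 0.127 in the others). Among 36 named introns and comparisons no alternative turned a direction. Most of these were named because the libraries of the groups did not overlap, and leaving out a library cannot then turn the sign. Alternatives that change only the FDR or the read limit keep the same inclusion difference. The outcome was therefore largely fixed by the choice of introns, and says little about how stable the directions are.

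Gene counts under DESeq2 were 3394, 1135, 4, 1388 and 414. Under edgeR the interaction had 146 with no filter. With 1 library left out the edgeR counts ranged from 1814 to 2545, 282 to 687, 1 to 3, 282 to 591 and 52 to 221. For P635L Tnpo3 against WT Ctr the count was 282 without P635L Tnpo3 replicate 4, 352 without WT Ctr replicate 2 and 360 without P635L Tnpo3 replicate 2. For P635L Tnpo3 against P635L Ctr it was 282 to 395 without any of P635L Tnpo3 replicates 1 to 3 or P635L Ctr replicates 1, 2 and 4, and for the interaction 52 when P635L Tnpo3 replicate 3 was left out, and 221 without WT Tnpo3 replicate 4. Depth limits the introns near the minimum of 10 reads most, where single reads move inclusion.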
